A study of Mus musculus with 26 samples.

Results

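The comparison described here is that of C2C12 myoblasts transfected with siSMYD3#2, the second of the siRNAs used against the methyltransferase SMYD3, with myoblasts transfected with siCtrl, a control siRNA, at 0 h. It holds 6 of the 26 RNA-Seq libraries of the series, 3 per group, chosen by their labelled treatment and time point. Cells were first transfected 24 h before differentiation was started and were harvested at 0 h, when they were confluent, so the labels place them at the end of growth rather than in sparse, dividing culture. The methods also describe a second transfection when differentiation was induced. C2C12 is a mouse line derived from satellite cells, and the groups differ by label only in the transfected siRNA. In each group, 1 library came from RNA extracted with TRIzol and 2 from RNA extracted with the NucleoSpin RNA Kit. The study's sample table also marks the TRIzol cultures p11 and the NucleoSpin cultures p14, taken here as passages 11 and 14. Extraction and culture passage therefore cannot be told apart. The other libraries of the series were those labelled siSMYD3#1 at 0 h, siRNA libraries at 24 h of differentiation, and 8 libraries of a SMYD3-overexpressing clone and its vector control, which were not used here.

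SMYD3 is a SET and MYND domain lysine methyltransferase with reported histone and cytoplasmic substrates. Myoblasts hold MYOD1 and MYF5 while they divide, and differentiation starts when growth factors are withdrawn, cells leave the cell cycle and myogenin is induced. An siRNA is loaded into an Argonaute protein as a single strand. The antisense strand pairs over its whole length with the intended transcript, and bases 2 to 8 of a loaded strand, the seed, can also pair with short sites in 3′ UTRs of other transcripts, as microRNAs do.

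The siRNA sequences are shown because the genes that changed are described below by their matches to them. Each strand is written 5′ to 3′, without overhangs, with the seed in capitals.
siSMYD3#2 antisense: uCAAAUCUucaaucaggcu
siSMYD3#2 sense: aGCCUGAUugaagauuuga
siCtrl sense: uUCUCCGAacgugucacgu
siCtrl antisense: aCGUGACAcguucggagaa
The antisense strand of siSMYD3#2 matched all 19 bases of 1 site among the annotated mouse transcripts, in the coding part of exon 12 of Smyd3-204, on the minus strand at chr1:178957505-178957523 of GRCm38. The transcript reads as follows there, with the bases that face the seed in capitals.
Smyd3 target site: agcctgattgaAGATTTGa
Neither strand of siCtrl matched any annotated transcript over its full length.

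Smyd3 mRNA was the check on the labels. Its level was 21.7 CPM in the TRIzol library of siCtrl and 20.4 and 19.5 CPM in the NucleoSpin libraries, against 6.37 CPM in the TRIzol library of siSMYD3#2 and 7.56 and 8.93 CPM in its NucleoSpin libraries. CPM are counts scaled to a common library size (TMM). Every siSMYD3#2 library was below every siCtrl library. The log2 fold change was -1.41 with a standard error of 0.16 (adjusted p-value 0.000107, edgeR quasi-likelihood test with extraction as a covariate). At the same time point the libraries labelled siSMYD3#1 held 18.4 ± 1.32 CPM (SD, n = 3). Smyd3 did not pass the test against siCtrl there (log2 fold change -0.16, adjusted p-value 0.785, edgeR). A lower Smyd3 mRNA level was therefore not seen in these libraries at 0 h, and whether their label is right was not tested. The paper followed SMYD3 protein by western blot and Smyd3 mRNA by qPCR after siRNA transfection, which these counts do not include. The direct test between the siRNAs gave a log2 difference of -1.25 (adjusted p-value 0.000236). The other members of the family did not pass the test. Smyd2 was at 60.4 ± 3.50 CPM in siCtrl and 72.4 ± 11.9 CPM in siSMYD3#2, Smyd4 at 53.1 ± 5.33 and 46.4 ± 5.68 CPM, and Smyd5 at 71.6 ± 22.2 and 86.8 ± 16.5 CPM (SD, n = 3 each). Smyd1, the muscle member of the family, was at 0.184 CPM in the TRIzol library of siCtrl and at 15.6 and 15.7 CPM in its NucleoSpin libraries.

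That split of Smyd1 was shared by other muscle genes. Des, which encodes the intermediate filament desmin, was at 67.3 CPM in the TRIzol library of siCtrl and at 841.7 and 945 CPM in the NucleoSpin libraries, and at 68.5, 887 and 1118 CPM in siSMYD3#2 in the same order. In such bulk RNA, fewer cells that express a gene and less RNA per cell cannot be told apart. Myod1 was at 6.41, 27.4 and 31.4 CPM in siCtrl and at 5.41, 29.1 and 38.6 CPM in siSMYD3#2. The fit therefore held a term for extraction, the same for all groups and both times, and did not pair single libraries. Total counts of the 6 libraries ranged from 20448760 to 60398170, and the 10 most abundant genes took between 5.1% and 6.55% of a library. The other myoblast markers were present, with Vim, Cdh15, Itga7 and Chrna1 at over 1000 counts in each library, while Pax7 was low (21 to 53 counts). Of 44 markers of fibroblasts, bone and cartilage, immune, endothelial, epithelial and neural cells, 19 had at most 3 counts in each of the 6 libraries. Others were clearly present, such as Ly6a (1551 to 6336 counts), Runx2 (1387 to 3722), Sox9 (1004 to 2670) and Tubb3 (731 to 7085). Krt14 (576 to 1432) and Pparg (417 to 997) were present too. Of the 44 markers, 19 could be tested and 0 were called (edgeR, adjusted p-value under 0.01).

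Of 15820 genes tested, 84 passed an adjusted p-value of 0.01 between siSMYD3#2 and siCtrl at 0 h, which is 0.531% of the genes tested. Of these, 50 were raised (0.316% of all genes) and 34 were lowered (0.215%). The changes were small, since 11 of the 84 reached a doubling or halving, 6 raised and 5 lowered. All 84 were protein-coding genes, and for all 84 the TRIzol ratio and both NucleoSpin ratios had the same sign, which follows in part from the selection. The levels did not overlap between groups for 69 of the 84, which the selection by the test largely sets, and for 6.68% of all genes tested. At an unadjusted p-value under 0.05 there were 1596 genes. The count rested on every library, since it was 30, 36 and 39 without siCtrl replicate 1, 2 or 3, and 59, 50 and 39 without siSMYD3#2 replicate 1, 2 or 3. It was 5 without extraction in the model and 205 with DESeq2, which also called 82 of the 84.

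**Figure D1:**
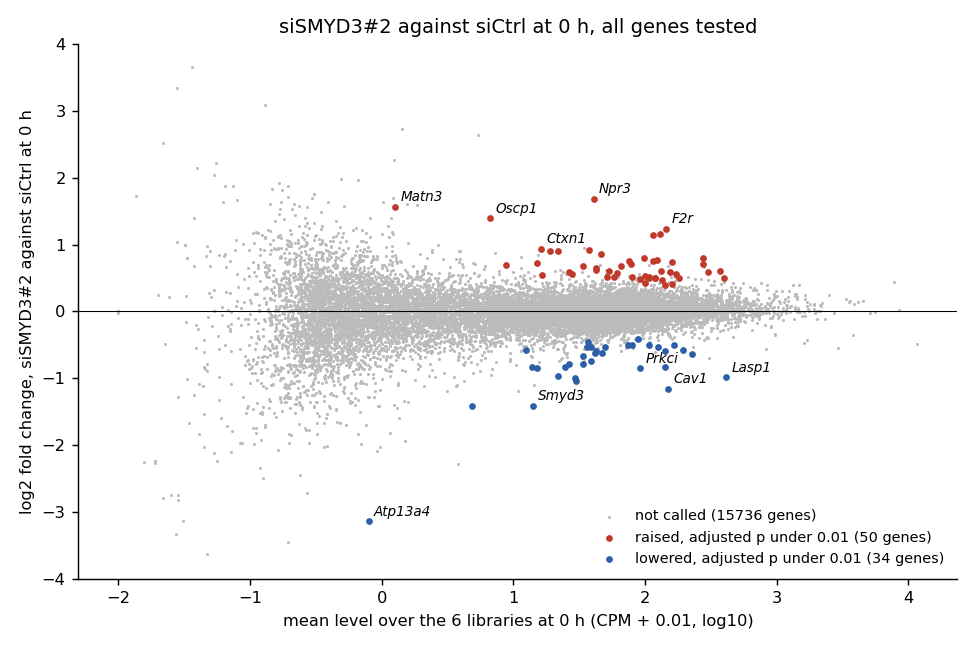
Log2 fold change of siSMYD3#2 against siCtrl at 0 h (y axis) by mean level over the 6 libraries (x axis, log10 of CPM + 0.01) for the 15820 genes tested, 1 point per gene, with the 50 raised genes in red and the 34 lowered genes in blue. Most called genes lie within 1 unit of 0, with Atp13a4 at -3.14 and Npr3 at 1.69 the farthest named points.

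Among lowered genes, Cav1, which encodes the scaffold protein of caveolae, had the largest fall after Smyd3 among genes with at least 100 counts and separate groups. Cav1 was at 205.8, 205.3 and 200.3 CPM in siCtrl (TRIzol first, then NucleoSpin, here and below) and at 110.4, 94.97 and 71.9 CPM in siSMYD3#2. The groups were far apart, with a log2 fold change of -1.16 ± 0.13 (standard error, adjusted p-value 4.65e-05). Lasp1, which encodes a LIM and SH3 protein of actin-rich adhesions, was at 578, 479 and 584 CPM in siCtrl and at 314, 236 and 284 CPM in siSMYD3#2, a log2 fold change of -0.98 ± 0.10 (adjusted p-value 4.48e-05). No siSMYD3#2 library came near a siCtrl library for Lasp1, though separate groups were a condition for its choice. Twf1, a twinfilin that binds actin monomers, fell by 0.59 on the log2 scale (adjusted p-value 0.00533).

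A pair of kinase genes was lowered. Prkx, which encodes a cAMP-dependent kinase catalytic subunit, was at 28.5, 49.5 and 42.7 CPM in siCtrl and at 16.6, 21.7 and 19.3 CPM in siSMYD3#2 (log2 fold change -1.05 ± 0.14, adjusted p-value 0.000505). Prkci, atypical protein kinase C iota of the cell polarity complex, was at 111.5, 124.9 and 117.8 CPM and at 66.8, 70.4 and 58.9 CPM (log2 fold change -0.85 ± 0.09, adjusted p-value 4.65e-05). Both had their lowest siCtrl value above their highest siSMYD3#2 value, which their choice among the largest falls required. Slc39a11, a zinc transporter, was even across libraries, at 17.1, 17.1 and 18.6 CPM in siCtrl and 9.37, 10.2 and 10.2 CPM in siSMYD3#2 (log2 fold change -0.83 ± 0.11).

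Genes for RNA and DNA handling were also among the 34. Mex3b, a KH-domain RNA-binding protein, was at 32.7, 50.4 and 46.8 CPM in siCtrl and 23.7, 26.8 and 23.6 CPM in siSMYD3#2 (log2 fold change -0.79, adjusted p-value 0.00136). Zfp367, a zinc finger transcription factor, fell by 0.83 (adjusted p-value 0.00163). Polh, the translesion polymerase eta, fell by 0.62, Sprtn, a protease for DNA-protein crosslinks, by 0.45, and H2afy, which encodes the histone variant macroH2A1, by 0.50. Genes of the ubiquitin system were called in both directions, and the lowered ones included the conjugating enzyme Ube2q2 (-0.79), the deubiquitinase Otud4 (-0.83) and the ligase Trim25 (-0.53). Galc, the lysosomal galactosylceramidase, went from 21.1, 32.3 and 33.2 CPM to 12.1, 16.9 and 14.96 CPM (log2 fold change -0.96 ± 0.15, adjusted p-value 0.00189). Mrs2, a mitochondrial magnesium channel, fell by 0.75, and Serpinb9, an inhibitor of granzyme B, by 0.67. Mrs2 shares 2466 of its 7621 exon bases with annotation on the opposite strand. Fgf7, a growth factor, differed between extractions, at 86.7, 15.5 and 13.99 CPM in siCtrl and 45.2, 7.98 and 6.49 CPM in siSMYD3#2, so that its groups overlapped although each extraction showed a fall (log2 fold change -0.99 ± 0.19, adjusted p-value 0.00973). The call of Fgf7 was lost whichever of the 6 libraries was left out, with RLE scaling and with the replicate block.

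Among raised genes, F2r, which encodes the thrombin receptor PAR1, had the smallest adjusted p-value. It was at 96.5, 78.2 and 83.9 CPM in siCtrl and at 232, 195 and 184.5 CPM in siSMYD3#2, a log2 fold change of 1.24 ± 0.10 (adjusted p-value 2.91e-06). Taldo1, the transaldolase of the pentose phosphate pathway, was at 66.0, 70.2 and 79.3 CPM and at 128.5, 164 and 186 CPM (log2 fold change 1.14 ± 0.10, adjusted p-value 7.36e-06). For both genes the groups were separate, which their choice among the largest rises required. Ccn2, the matricellular factor CTGF, was at 56.1, 89.9 and 94.0 CPM in siCtrl and at 117, 199 and 229 CPM in siSMYD3#2 (log2 fold change 1.16 ± 0.19, adjusted p-value 0.00408). Over 665 exon bases Ccn2 overlaps an antisense gene, and its call was lost without siCtrl replicate 2 or 3 and without siSMYD3#2 replicate 1 or 3. Besides Smyd3, 27 called genes were named by the rule given with the processing. Of these 27, 14 kept their call whichever of the 6 libraries was left out. The others of the 27, with the number of the 6 fits in which the call was lost, were Fgf7 (6), Galc, Serpinb9 and Kdm2a (5 each), Ccn2, Pex6, Zfp367, Trim25 and Actr2 (4 each), Mex3b and Ube2q2 (3 each), and Mrs2 and Oscp1 (1 each). Called genes named outside that rule, such as Npr3, Sprtn and Rab2a, are not covered by these counts. The natriuretic peptide clearance receptor Npr3 had the largest rise of all called genes, 1.69 ± 0.27, from 7.29, 24.1 and 21.6 CPM to 14.7, 92.3 and 83.5 CPM. Its groups overlapped because both TRIzol libraries were low.

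**Figure D2:**
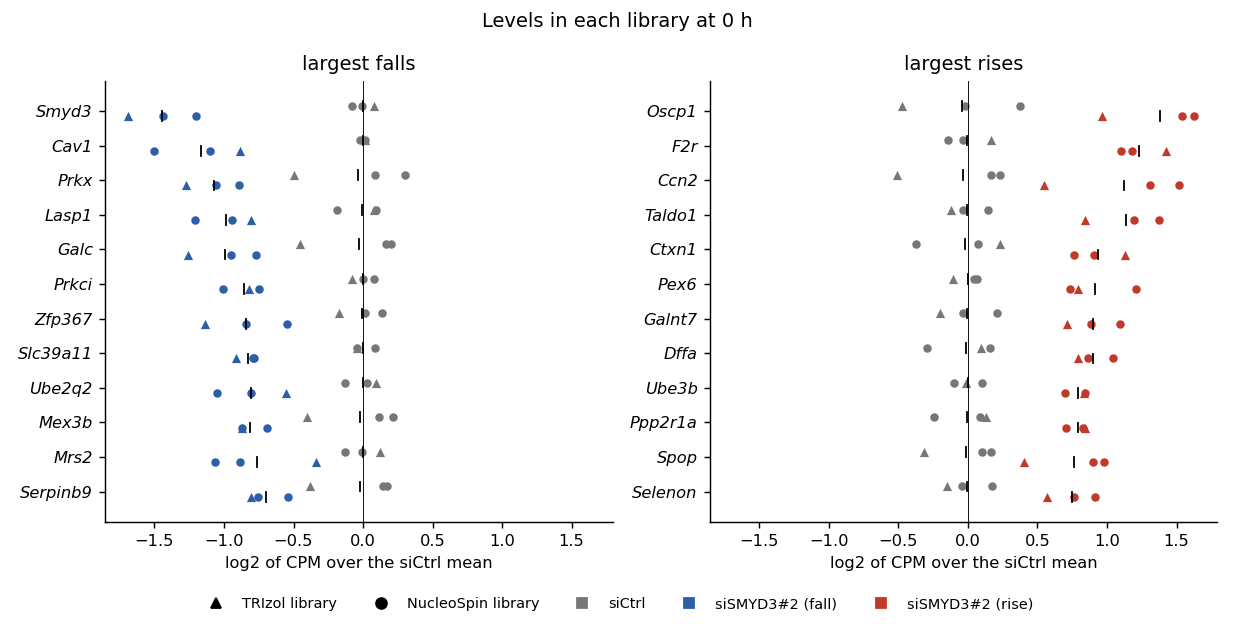
Level of each of the 12 genes with the largest falls (left) and the 12 with the largest rises (right) in every library at 0 h, as log2 of CPM over the siCtrl mean (x axis), with siCtrl in grey, siSMYD3#2 in blue or red, triangles for TRIzol, circles for NucleoSpin, and a bar at the mean of the 3 log2 values. In each of the 24 genes the groups do not overlap, which the choice of these genes required, and the TRIzol siCtrl library lies to the left of the NucleoSpin ones for genes such as Prkx, Galc and Ccn2.

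Ubiquitin and phosphatase genes were among the other large rises. Spop, the substrate adaptor of a CUL3 ubiquitin ligase, was at 72.5, 101.5 and 96.9 CPM in siCtrl and at 119.6, 178 and 168 CPM in siSMYD3#2 (log2 fold change 0.78 ± 0.07, adjusted p-value 7.36e-06). Ube3b, a HECT ubiquitin ligase, rose by 0.80 ± 0.09, from 71.7, 67.5 and 77.7 CPM to 129, 117 and 129.9 CPM. Ppp2r1a, the scaffold subunit of protein phosphatase 2A, rose by 0.80 ± 0.09 as well, and Ppp2r2a, a regulatory subunit, by 0.43 ± 0.07 (adjusted p-value 0.00238). Spop differed more between extractions within a group than Ube3b did.

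Several called genes act in the secretory pathway, a grouping made after their values were seen and with no count of how many such genes were tested. Galnt7, which starts or extends mucin-type O-glycans, was at 13.3, 17.6 and 14.9 CPM in siCtrl and at 24.96, 32.6 and 28.2 CPM in siSMYD3#2 (log2 fold change 0.91 ± 0.12, adjusted p-value 0.000382). Lman1, the cargo receptor from the endoplasmic reticulum to the Golgi, showed little spread, at 138 ± 1.23 CPM in siCtrl and 204 ± 0.683 CPM in siSMYD3#2 (SD, n = 3 each). Selenon, an endoplasmic reticulum selenoprotein whose loss causes a congenital myopathy, rose by 0.75 ± 0.08 (adjusted p-value 6e-05). Ganab, Chsy1, Pigs, Rab2a and Golga2 rose by between 0.42 and 0.60, and Yif1a, Arl5a, Selenot and Vapa fell by between 0.50 and 0.63.

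The remaining large rises had no shared role. Oscp1 went from 2.61, 3.59 and 4.71 CPM to 7.10, 10.6 and 11.2 CPM (log2 fold change 1.39 ± 0.20, adjusted p-value 0.00103). Pex6, an ATPase that recycles the peroxisomal import receptor, was at 24.0, 27.1 and 26.7 CPM in siCtrl and at 45.0, 43.1 and 59.95 CPM in siSMYD3#2 (log2 fold change 0.92 ± 0.15, adjusted p-value 0.00238). Dffa, the inhibitor of the caspase-activated DNase, was at 14.1, 10.7 and 14.7 CPM and at 22.7, 24.0 and 27.1 CPM (log2 fold change 0.90 ± 0.12, adjusted p-value 0.000783). Ctxn1, a small neuronal membrane protein, rose by 0.94 ± 0.12. The histone demethylase Kdm2a, by contrast, had the smallest rise of the 50 raised genes, 0.40 ± 0.06. Kdm2a was the 1 gene called of 60 tested in a list of histone and protein methylation, beside 0.531% of all genes. Its call was lost in 5 of the 6 fits that left out 1 library, in the fit of the 6 libraries alone and with no filter. The placing of called genes by role was made after their values were seen.

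The seed of the siSMYD3#2 antisense strand faces the letters AGATTTG. Matches were searched on the transcript strand, in the longest annotated 3′ UTR of each protein-coding gene, which was found for 12551 of the genes tested and for all 84 called genes. Of the 34 lowered genes, 23 held AGATTTG (67.6%), against 13.6% of the 12551 genes and 10% of the 50 raised genes. Without Smyd3 itself, which has the coding site and 2 further matches in its 3′ UTR, the match was in 22 other lowered genes. The density was 0.436 matches per 1000 bases in lowered genes, 0.0962 in all genes and 0.0445 in raised genes. The motif of the other siSMYD3#2 strand, ATCAGGC, was in 11.8% of lowered, 10% of raised and 7.06% of all genes.

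The matching windows of the 6 lowered genes with the largest falls among those with a match, at least 100 counts and a window within 1 exon, are shown with the 7 letters in capitals.
Smyd3: ccaccccAGATTTGctaagta
Prkx: tgactgtAGATTTGaaatatg
Fgf7: taaagaaAGATTTGaagaata
Galc: agctcacAGATTTGgatcatc
Prkci: gtgtttaAGATTTGatgtaaa
Zfp367: tggaaatAGATTTGatgtaaa
All are in annotated 3′ UTRs of GRCm38, on the minus strand at chr1:178954488-178954508 (Smyd3), chrX:77761685-77761705 (Prkx), chr12:98203048-98203068 (Galc) and chr13:64135119-64135139 (Zfp367), and on the plus strand at chr2:126089750-126089770 (Fgf7) and chr3:31051008-31051028 (Prkci). Cav1, Lasp1, Otud4, Nckap1l, Trim25, Serpinb9, Arl5a, Kctd5, Rnf185, Atp13a4 and Kif5c were the 11 lowered genes with no AGATTTG in the 3′ UTR.

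Some of the raised genes, though not most, held a 3′ UTR match to a different siRNA, siCtrl. The seed of the siCtrl sense strand faces TCGGAGA, a rare motif that 2.13% of the 12551 genes held in the 3′ UTR. It was in 16 of the 50 raised genes (32%) and in 0 of the 34 lowered genes. Counted anywhere in the transcript it was in 24 raised genes (48%), against 11.8% of all genes. The other siCtrl motif, TGTCACG, was in 6% of raised and 2.94% of all genes. The windows of the 6 raised genes chosen in the same way are as follows.
Npr3: ggcgttcTCGGAGAagtcatt
Oscp1: cgacctcTCGGAGAgcatcca
Taldo1: ttagtgaTCGGAGAagggatg
Ctxn1: agggcgtTCGGAGAagtccag
Galnt7: aggaaacTCGGAGAattggta
Hhipl1: cagcactTCGGAGAgcagcca
They lie in 3′ UTRs on the minus strand at chr15:11845076-11845096 (Npr3), chr8:4258257-4258277 (Ctxn1) and chr8:57524297-57524317 (Galnt7), and on the plus strand at chr4:126088586-126088606 (Oscp1), chr7:141402885-141402905 (Taldo1) and chr12:108328400-108328420 (Hhipl1). The other raised genes with the match were Spop, Apbb2, Trpc4ap, Mpzl1, Lman1, Etf1, Abi2, Entpd7, Rab2a and Cnnm2. F2r, Ube3b, Ppp2r1a, Selenon and Ccn2 had no TCGGAGA in the 3′ UTR or upstream of it.

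The motifs of siSMYD3#1, an siRNA in neither group, were counted too, though they are not matched to the others in composition. AGCTGTG was in 32.4% of lowered, 20% of raised and 21.7% of all genes, and ACCCCAA in 17.6%, 10% and 10.1%. Called genes had longer 3′ UTRs than the rest, with a median of 2058.5 bases in lowered genes and 1827 bases in raised genes against 1184 bases in all genes. Within 3′ UTRs of up to 1000 bases, AGATTTG was in 5 of 6 lowered genes and in 3.73% of the genes not called, and TCGGAGA in 3 of 11 raised genes and in 0.594% of the genes not called. In 3′ UTRs longer than 1000 and up to 2500 bases the lowered genes held AGATTTG in 11 of 16 cases (68.8%), against 14% of the genes not called, and in longer ones in 7 of 12 cases (58.3%), against 32.7%. For TCGGAGA the shares in these longer classes were 27.3% and 41.2% of raised genes, against 2.03% and 4.84% of the genes not called. With 6 letters in place of 7, facing bases 2 to 7 of the strand, the match was in 30 of the 34 lowered genes (88.2%, against 31.9% of all genes) for siSMYD3#2 and in 33 of the 50 raised genes (66%, against 8.99%) for siCtrl.

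Over all genes tested with an annotated 3′ UTR, called genes included, fold changes also lay apart by the matches. The median log2 fold change was 0.004 in the 10839 genes with no AGATTTG in the 3′ UTR, -0.053 in the 1467 genes with 1 match and -0.106 in the 245 genes with 2 or more, of which 71% lay below 0. For TCGGAGA the median was -0.005 in the 12284 genes without a match and 0.115 in the 261 genes with 1 match, of which 30.3% lay below 0. These shifts are small beside the quartiles, which ran from -0.262 to 0.035 for genes with 2 or more AGATTTG. Pairing between siRNAs and these transcripts was not measured, and its part in the changes was not tested.

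**Figure D3:**
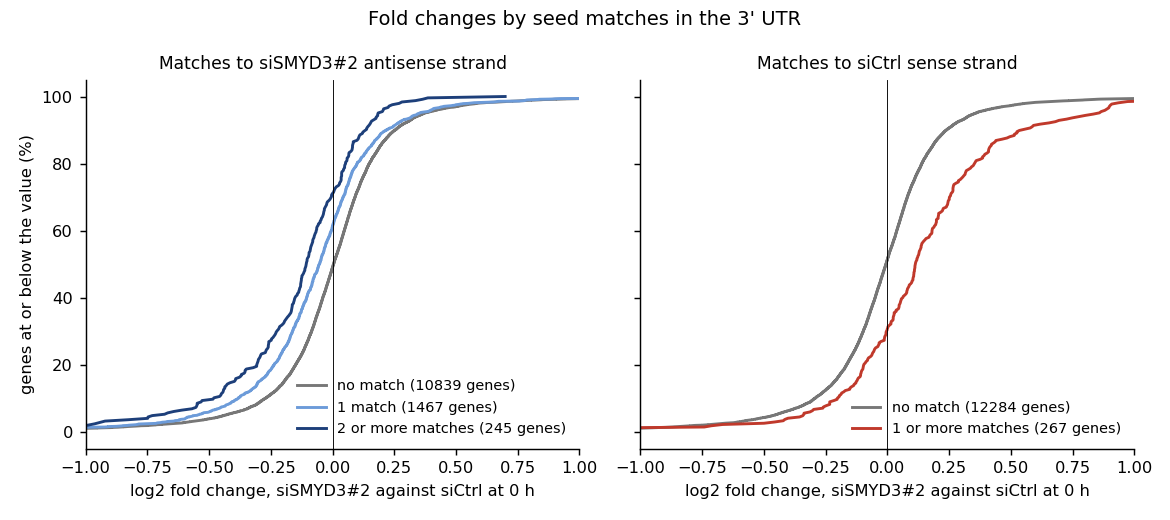
Cumulative share of genes (y axis, percent) at or below each log2 fold change of siSMYD3#2 against siCtrl at 0 h (x axis), by the number of 3′ UTR matches to the seed of the siSMYD3#2 antisense strand (left) and the siCtrl sense strand (right). With AGATTTG matches the curves lie to the left of the curve for no match, the more so with 2 or more, and with TCGGAGA matches to the right. Values beyond 1 on either side are outside the axis.

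The libraries labelled siSMYD3#1 at 0 h, in which Smyd3 was not detectably lowered, were measured against the same siCtrl libraries, so the effects of the siRNAs share their control and are set side by side without a test of their likeness. Over the 50 raised genes the median log2 fold change was 0.61 with siSMYD3#2 and 0.61 in the libraries labelled siSMYD3#1. Over the 34 lowered genes it was -0.66 with siSMYD3#2 and -0.10 in those labelled siSMYD3#1. Taldo1 had a log2 fold change of 1.14 and 1.07 for the siRNAs in that order, Spop of 0.78 and 0.82, and Ube3b of 0.80 and 0.86. Cav1 had -1.16 and -0.20, Lasp1 -0.98 and -0.14, and Prkx -1.05 and -0.01.

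The direct test between siSMYD3#2 and the libraries labelled siSMYD3#1, which uses no siCtrl library for the fold change, called 185 genes at 0 h (1.17% of those tested), 125 higher and 60 lower with siSMYD3#2. Of the 34 lowered genes, 22 were among them, and of the 50 raised genes, 1 was, which is Dffa (log2 difference 0.74, adjusted p-value 0.00234). The 12 lowered genes that did not pass this test included Nckap1l, a WAVE complex subunit (log2 difference 0.05, adjusted p-value 0.967), Atp13a4, a P-type ATPase (0.00, adjusted p-value 0.999), Dock11 (0.04, adjusted p-value 0.922) and Kif5c (0.06, adjusted p-value 0.892). For Atp13a4 both sets of libraries gave -3.14 against siCtrl, on low counts (a mean of 32.7 over the 6 libraries). Of the 59 genes lower with siSMYD3#2 than in the libraries labelled siSMYD3#1 that have a 3′ UTR, 42.4% held AGATTTG and 1.69% TCGGAGA. Of the 124 higher ones, 67.7% held AGCTGTG, the motif of the siSMYD3#1 sense strand, and 2.42% TCGGAGA.

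**Figure D4:**
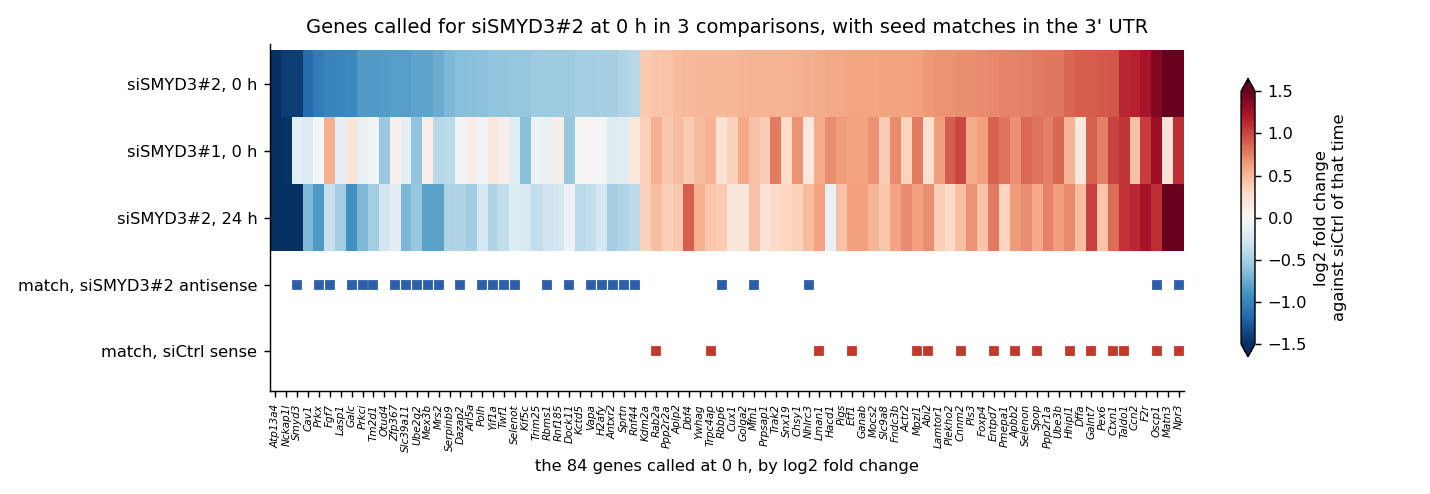
Log2 fold change (colour, cut at 1.5 on either side) of the 84 genes called at 0 h, ordered along the x axis, for siSMYD3#2 at 0 h, siSMYD3#1 at 0 h and siSMYD3#2 at 24 h, each against siCtrl of its time, with squares for genes whose 3′ UTR matches the seed of the siSMYD3#2 antisense or siCtrl sense strand. The 2 rows at 0 h share the siCtrl libraries. Most raised genes are red in the siSMYD3#1 row too, though some, such as Dffa and Nhlrc3, are pale, and most lowered genes are pale there. Blue squares gather under lowered genes while red squares lie only under raised genes.

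Because of the second transfection at the start of differentiation, siRNA dosing may differ between 0 h and 24 h along with time. The same siRNA after 24 h of differentiation was measured in other libraries, siCtrl included. There 586 genes (3.7% of those tested) passed the threshold, 263 raised and 323 lowered. Of the 84 genes of 0 h, 55 were called again in the same direction (65.5% of the genes of 0 h and 9.39% of the genes of 24 h), 0 in the opposite direction, and 83 kept their sign. The exception was Hacd1, a gene of very long chain fatty acid synthesis (log2 fold change 0.56 at 0 h and -0.10 at 24 h). F2r had 1.24 at both times, Smyd3 -1.41 and -1.51, and Npr3 1.69 and 2.37. Of the 16 raised genes with TCGGAGA, 15 were called at 24 h, against 21 of the 34 raised genes without it. Of the 23 lowered genes with AGATTTG, 13 were called at 24 h, and of the 11 without it, 6 were. Over all genes the medians by AGATTTG matches lay together at 24 h, at 0.000, 0.001 and 0.001 for 0, 1 and 2 or more matches, and the motif was in 17.1% of the genes lowered at 24 h against 13.6% of all genes. For 1 match to TCGGAGA the median at 24 h was 0.141, and 11.9% of the genes raised at 24 h held it, against 2.13% of all genes. The effect itself differed between the times for 3 genes (0.019% of those tested), namely Tgfb3, Iffo1 and Hist1h1c, all lower with siSMYD3#2 at 24 h and not called at 0 h, and 0 of the 84 genes were among them (edgeR interaction term). At an unadjusted p-value under 0.05 this term gave 1585 genes, and DESeq2 called 111, while 5 of the 6 fits that left out 1 library called 0 (without siCtrl replicate 1 or 2, or any siSMYD3#2 replicate) and the other called 4.

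Functions were read from 37 gene lists. Of the 1299 list genes tested, 7 were called at 0 h, which is 0.539%, next to the 0.531% of all genes. They were Smyd3, Trim25, Fgf7, F2r, Ccn2, Kdm2a and Actr2, a subunit of the Arp2/3 complex that nucleates actin branches, which rose by 0.61 ± 0.10. No list had more than 3 called genes, and 32 had 0. Over the 31 lists with at least 10 genes tested, median log2 fold changes lay between -0.173 and 0.235, beside -0.004 over all genes tested.

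Myogenic regulators did not pass the test at 0 h. Myf5 was at 82.2, 90.9 and 83.4 CPM in siCtrl and at 64.5, 72.6 and 70.4 CPM in siSMYD3#2, without overlap but short of the threshold (log2 fold change -0.31 ± 0.10, adjusted p-value 0.243). Myod1 had a log2 fold change of 0.11 ± 0.28. Myog, which encodes myogenin, was barely present at 0 h, at 0.184, 1.10 and 1.87 CPM in siCtrl and 0.193, 1.35 and 1.26 CPM in siSMYD3#2. At 24 h it was at 180.1 ± 110 CPM in siCtrl and 41.6 ± 9.30 CPM in siSMYD3#2 (SD, n = 3 each; log2 fold change -1.81, adjusted p-value 0.00125). Among 54 sarcomere and contraction genes, 0 were called at 0 h by edgeR, with 2 raised at an unadjusted p-value under 0.05 and a median of 0.052. At 24 h, 29 of the 54 genes were lowered, where 323 of all 15820 genes tested were, and the list median was -1.573.

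None of the members of the lists of mitosis, replication and G1 genes passed the edgeR test at 0 h. Mki67 was at 560, 448 and 433 CPM in siCtrl and at 566, 426 and 417 CPM in siSMYD3#2 (log2 fold change -0.04 ± 0.08). Of 70 mitosis genes, 0 were called (9 lowered at an unadjusted p-value under 0.05, median -0.106), of 50 replication genes, 0 were called (2 lowered at that p-value, median -0.092), and of 21 G1 genes, 0 were called (6 lowered at that p-value, median -0.173). Outside these lists Dbf4, the activating subunit of the replication kinase CDC7, was called as raised, and was named after its values were seen. It was at 60.4, 86.1 and 78.9 CPM in siCtrl and at 77.5, 126 and 115 CPM in siSMYD3#2, with overlapping groups but a rise within each extraction (Dbf4 log2 fold change 0.49 ± 0.09, adjusted p-value 0.00481). Ccnd1, cyclin D1, was at 428, 352 and 343.5 CPM in siCtrl and at 241, 230.5 and 227 CPM in siSMYD3#2, with separate groups. Its log2 fold change was -0.69 ± 0.20 (adjusted p-value 0.152), and it passed the threshold in the fits with only the 6 or only the 9 libraries of 0 h and in that with no filter on low counts. Over 1100 exon bases Ccnd1 overlaps an antisense gene. Cdkn1a, the CDK inhibitor p21, was at 322, 215.5 and 234 CPM and at 268, 158 and 169 CPM (log2 fold change -0.39 ± 0.14, adjusted p-value 0.289), and was called with the NucleoSpin libraries alone. At 24 h, 29 of the 70 mitosis genes were raised, where 263 of all 15820 genes tested were.

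Further lists held genes of RNA sensing, stress and matrix. Of 57 interferon and RNA sensing genes, Trim25 was called, with 60.3, 39.5 and 37.4 CPM in siCtrl and 43.4, 26.1 and 25.9 CPM in siSMYD3#2. The median of that list was -0.062. None of 14 RNA interference genes (median -0.042), 44 p53 target and apoptosis genes (median -0.053) or 52 endoplasmic reticulum stress genes (median -0.003) was called by edgeR, with 0, 7 and 2 of them at an unadjusted p-value under 0.05. Cholesterol and fatty acid genes had the highest list median, 0.235, with 0 of 41 called and 4 raised at an unadjusted p-value under 0.05. Collagen genes had a median of 0.177 with 0 of 25 called. Fibronectin (Fn1) was at 4173, 7493 and 8214 CPM in siCtrl and at 6487, 9702 and 10330 CPM in siSMYD3#2, higher within each extraction (log2 fold change 0.45 ± 0.15, adjusted p-value 0.248), and was called in the fits with only the 9 libraries of 0 h or with no filter.

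**Figure D5:**
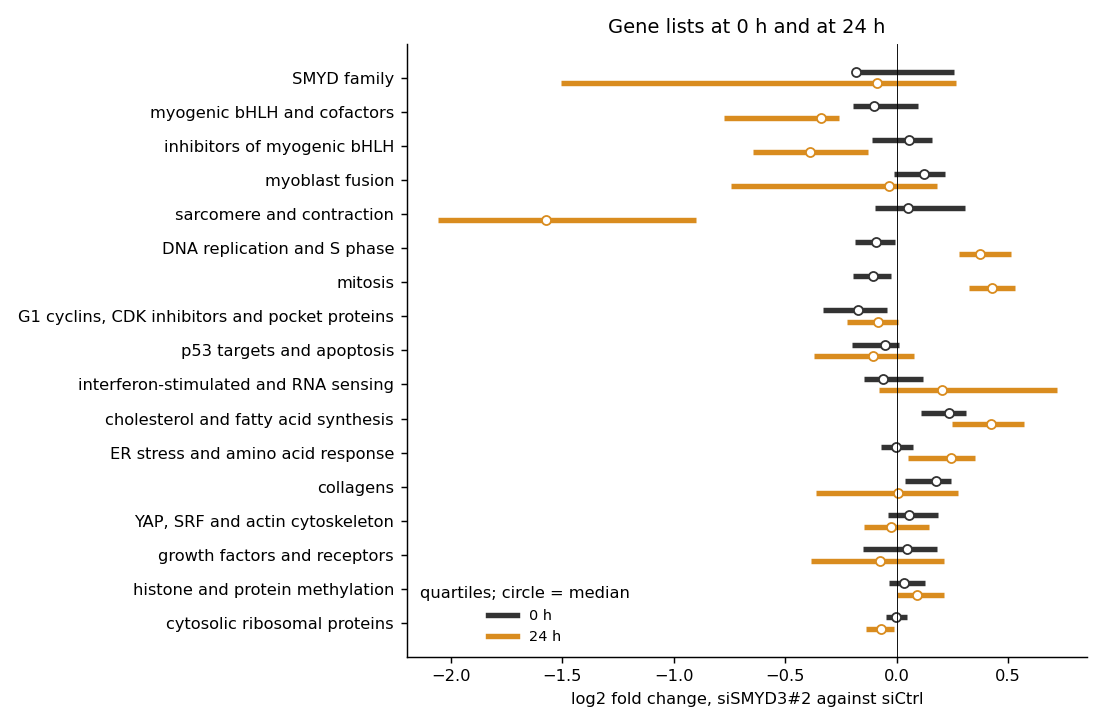
Quartiles (bars) and medians (circles) of the log2 fold change of siSMYD3#2 against siCtrl over the genes tested of 17 gene lists, at 0 h in black and at 24 h in orange. At 0 h all medians shown lie between -0.183 (the 5 SMYD genes) and 0.235, while at 24 h sarcomere and contraction genes have a median of -1.573 and mitosis genes 0.428.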

How the data were processed

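The authors made stranded poly(A) libraries, aligned paired-end reads to GRCm38 with HISAT2 2.1.0 and deposited featureCounts (Subread 1.6.3) read counts per gene, without normalization, per the labels and the processing notes. Strand setting and annotation release are not given in the sources used here, so called genes whose exons overlap an antisense gene (20 of 84) are uncertain to that extent. The study's own test used DESeq2 with condition and extraction.

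Counts of the 18 siRNA libraries were fitted together in edgeR 4.0.16 (R 4.3.3) as 6 groups with extraction as covariate: filterByExpr left 15820 of 55341 genes, libraries were scaled by TMM, and the quasi-likelihood test was adjusted by Benjamini-Hochberg over all genes tested, with a threshold of 0.01. All tests are two-sided. A standard error is the size of the log2 fold change divided by the square root of F. The direct test of the siRNAs and the difference of the effect between 24 h and 0 h came from the same fit. Libraries numbered 1 to 3 follow accession order, and number 1 is the TRIzol library at 0 h. The methods call them biological replicates, while the labels do not say that they came from separate cultures, so p-values measure the spread between these samples. In 18 pairs within groups, counts differed beyond sampling noise (chi-square per degree of freedom of at least 3.8), and no 2 libraries were identical.

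Symbols, exons and 3′ UTRs came from GENCODE M21 (GRCm38), and siRNA sequences from the study's reagent table. Seed matches are counts of letters in the longest annotated 3′ UTR of a protein-coding transcript, which C2C12 cells may not use, and carry no test.

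Named genes were Smyd3, the 12 largest rises and falls among called genes with at least 100 counts on average and groups that do not overlap, up to 4 called members of each list, the SMYD family, and Myod1, Myf5, Myog, Mki67, Ccnd1 and Cdkn1a. Other called genes (such as Npr3, Atp13a4, Polh and Lman1), and the genes named by their seed matches, were chosen after their values were seen. The comparison, the lists and the seed counts were chosen with earlier results of these data known.

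The study's replicate numbers, given in its sample table, offer a pairing of the libraries. By these numbers, deviations from the group means correlated between siCtrl and siSMYD3#2 at 0 h with r of 0.592, 0.66 and 0.851 over genes. Those values include the difference between extractions, so they cannot show that the numbers pair the libraries. Within NucleoSpin r was 0.177 at 0 h and 0.057 at 24 h. A fit with the replicate numbers as block was 1 of the alternatives, next to DESeq2 1.42.0, RLE scaling, no filter, no covariate, other sets of libraries, other thresholds and leaving out each library. Scripts were tested on simulated counts. The 8 overexpression libraries were left out.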

Additional observations from a re-analysis of the deposited data

Results flagged for a closer look

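The siSMYD3#2 libraries and those labelled siSMYD3#1 at 0 h differed in 185 genes by the direct edgeR test. Among the genes named above, the log2 difference (siSMYD3#2 minus siSMYD3#1) was -1.52 for Fgf7, -1.25 for Smyd3, -1.16 for Galc, -1.03 for Prkx, -0.95 for Cav1, -0.92 for Zfp367, -0.89 for Mex3b, -0.84 for Lasp1, -0.74 for Prkci, -0.69 for Slc39a11 and -0.45 for Trim25, and 0.74 for Dffa. These 12 genes were listed because the adjusted p-value of that difference was under 0.01, among genes named by the rule given with the processing. Genes named outside that rule could pass too, such as Polh (adjusted p-value 0.000449, edgeR) and Yif1a (0.000226). The effect of siSMYD3#2 differed between 24 h and 0 h for 3 genes by the interaction term, with a log2 difference of effects of -0.83 for Tgfb3, -0.88 for Iffo1 and -1.05 for the histone H1 gene Hist1h1c, and this count was 0 in 5 of the 6 fits that left out 1 library. Groups of 3 were too small for the check of single outlying libraries.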

How the results depend on the processing

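All 84 genes called at 0 h kept their sign under all 14 refits. The 27 called genes named by the rule, besides Smyd3, lost the call in 76 of 378 refits with a value and turned in 0. Counts below are genes changed at 0 h, raised, lowered, differing between the siRNAs, and differing in effect between the times, in that order. They were 205, 138, 67, 411 and 111 with DESeq2, 208, 98, 110, 468 and 230 with no filter (31510 genes tested), 5, 2, 3, 11 and 0 with no extraction covariate (525 at an unadjusted p-value under 0.05 for the last), 138, 76, 62, 423 and 175 with NucleoSpin libraries only, and 169, 108, 61, 387 and 24 at an adjusted p-value under 0.05. With only the 9 libraries of 0 h the first 4 were 167, 94, 73 and 469. A doubling or halving left 11, 6 and 5. Leaving out 1 library gave 30 to 59 (30, 36 and 39 without siCtrl replicates 1 to 3; 59, 50 and 39 without siSMYD3#2 replicates 1 to 3), 17 to 41, 11 to 18, 90 to 188 and 0 to 4. With the replicate block, 65 of the 84 genes were called, 3 genes differed between the times, and of the 27 genes named by the rule Fgf7 lost its call, as it did with RLE scaling. Smyd3 stayed called except with no extraction covariate (-1.43, adjusted p-value 0.0113), with -1.57 to -1.21 when 1 library was left out. Members of the gene lists called were 20 with DESeq2, 35 with no filter, 0 of 1299 with no covariate, 16 with the 6 libraries, 28 with the 9, 19 with NucleoSpin libraries and 3 to 5 when 1 library was left out. In alternatives added after seeing the data, the share of lowered genes with AGATTTG was 46.9% with no filter, 48.7% with the 6 libraries and 48.6% with the 9, and 61.1% to 83.3% when 1 library was left out. The share of raised genes with TCGGAGA was 29.3% to 44% when 1 library was left out, and 0% with no covariate, where 2 genes were called. The causes of these moves were not tested, apart from the threshold, the filter and the smaller number of libraries themselves.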
